A study of Mus musculus with 6 samples.

Results

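Mitosis and G2/M genes were followed in fibro/adipogenic progenitors (FAPs), stromal cells that lie between muscle fibres and can give rise to fibroblasts and fat cells. The members were 45 genes listed by their role in entry into mitosis, chromosome condensation, the kinetochore, the spindle or cytokinesis. A probe set annotated with exactly 1 of these symbols was found for 44 of them, out of 19938 genes named in this way, and no value is given for Ccnb1 (cyclin B1). All 44 lay above the filter on low values that left 14953 genes to be tested. For Top2a, which has 2 such probe sets, the one with the higher mean was taken. Members' mean levels ran from 5.81 for Ttk to 8.58 for Ccnb2, with a median of 7.01, on the log2 scale of the arrays.

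The cells came from wild-type male C57Bl/6 mice aged 8 to 12 weeks. Every group had received a glycerol injury, 30 µL of 50% (v/v) glycerol in each tibialis anterior muscle, and an injection of a vivo-morpholino (VMO) 3 days later, and FAPs were isolated 2 days after that. A VMO is a synthetic antisense oligomer coupled to a delivery group, which blocks a chosen site of an RNA in the animal. The groups received pA-VMOs (against polyadenylation sites), 5'ss-VMO (against a 5' splice site) or Control VMO. The study concerns intronic polyadenylation of the transcript of Pdgfra, the platelet-derived growth factor receptor that marks FAPs. There were 2 arrays in each group, and the RNA on an array came from cells pooled from 4 mice. The way the FAPs were sorted is not given in the sources used here.

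Cells preparing to divide raise a shared set of transcripts in the G2 phase and lower them again after division. Cyclin-dependent kinase 1 with cyclins A and B drives entry into mitosis, condensins compact the chromosomes, kinetochores join them to spindle microtubules, and the spindle checkpoint holds back the anaphase-promoting complex until every chromosome is attached. FAPs of resting muscle are mostly quiescent, and they divide in the first days after an injury and are then cleared. Transcription of many mitotic genes is held down in quiescent cells by the DREAM complex and raised in G2 by the related MuvB complex with B-Myb and FoxM1. These complexes bind a short promoter element, the cell cycle genes homology region (CHR), often together with CCAAT boxes bound by NF-Y.

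The promoter windows of the members are shown for the 5 members whose levels differed the most among the 3 groups relative to their spread, and for the 2 that differed the least, so that the shared element can be seen beside the values that follow. Only members with a single window were eligible. The windows run from 250 bases before the transcription start to 50 bases after it, are printed 5′ to 3′ on the strand of the gene, and come from RefSeq (GRCm38.p6). Capitals mark CCAAT boxes and CHR letters on either strand. The CHR was searched as TTTGAA. The palindrome TTCGAA was also counted as a CHR.
Mki67 promoter, chr7:135716330-135716629, minus strand: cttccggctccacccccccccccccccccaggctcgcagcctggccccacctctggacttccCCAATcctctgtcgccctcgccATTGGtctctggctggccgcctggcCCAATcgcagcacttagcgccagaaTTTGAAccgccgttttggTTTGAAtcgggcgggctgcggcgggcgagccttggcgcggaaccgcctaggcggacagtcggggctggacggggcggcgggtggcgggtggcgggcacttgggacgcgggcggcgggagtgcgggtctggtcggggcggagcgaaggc
Ncapg promoter, chr5:45669675-45669974, plus strand: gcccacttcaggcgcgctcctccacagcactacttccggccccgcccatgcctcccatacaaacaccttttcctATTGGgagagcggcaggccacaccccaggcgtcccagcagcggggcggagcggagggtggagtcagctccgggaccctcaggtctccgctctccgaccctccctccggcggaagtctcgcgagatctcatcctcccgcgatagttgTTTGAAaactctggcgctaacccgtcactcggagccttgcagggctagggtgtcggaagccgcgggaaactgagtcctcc
Racgap1 promoter, chr15:99651607-99651906, minus strand: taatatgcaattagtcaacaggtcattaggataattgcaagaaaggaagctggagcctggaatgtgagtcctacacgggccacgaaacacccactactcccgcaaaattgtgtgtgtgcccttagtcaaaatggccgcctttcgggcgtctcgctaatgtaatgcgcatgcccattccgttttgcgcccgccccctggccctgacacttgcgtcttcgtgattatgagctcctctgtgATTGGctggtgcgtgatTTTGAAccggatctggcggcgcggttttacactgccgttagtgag
Aspm promoter, chr1:139454523-139454822, plus strand: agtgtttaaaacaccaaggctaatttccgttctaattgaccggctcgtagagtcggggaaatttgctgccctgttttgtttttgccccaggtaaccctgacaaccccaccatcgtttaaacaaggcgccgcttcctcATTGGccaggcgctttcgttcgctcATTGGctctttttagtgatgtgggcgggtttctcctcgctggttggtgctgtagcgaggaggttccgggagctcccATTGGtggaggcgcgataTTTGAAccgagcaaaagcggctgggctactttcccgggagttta
Kif4 promoter, chrX:100625815-100626114, plus strand: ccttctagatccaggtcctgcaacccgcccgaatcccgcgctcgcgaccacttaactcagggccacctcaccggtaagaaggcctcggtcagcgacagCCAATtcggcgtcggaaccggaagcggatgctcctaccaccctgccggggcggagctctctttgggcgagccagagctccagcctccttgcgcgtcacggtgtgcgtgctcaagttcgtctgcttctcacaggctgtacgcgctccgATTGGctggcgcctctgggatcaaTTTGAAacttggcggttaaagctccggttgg
Nusap1 promoter, chr2:119618048-119618347, plus strand: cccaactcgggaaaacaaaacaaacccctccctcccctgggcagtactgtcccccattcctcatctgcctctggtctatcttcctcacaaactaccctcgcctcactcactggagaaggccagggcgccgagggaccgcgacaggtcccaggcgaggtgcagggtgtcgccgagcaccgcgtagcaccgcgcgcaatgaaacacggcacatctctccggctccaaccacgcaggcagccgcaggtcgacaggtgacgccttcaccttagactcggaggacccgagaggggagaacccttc
Cdc20 promoter, chr4:118437294-118437593, minus strand: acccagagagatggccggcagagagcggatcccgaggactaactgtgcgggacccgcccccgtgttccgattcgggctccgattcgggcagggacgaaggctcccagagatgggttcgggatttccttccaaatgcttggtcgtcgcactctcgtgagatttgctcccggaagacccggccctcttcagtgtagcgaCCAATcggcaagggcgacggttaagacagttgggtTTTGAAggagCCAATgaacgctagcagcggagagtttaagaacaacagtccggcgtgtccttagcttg

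The first 5 windows all hold a CHR match and at least 1 CCAAT match. With the start as position 1, the CHR match begins at position 6 in Racgap1, at 7 in Aspm, at 20 in Kif4 and at -30 in Ncapg. Mki67 has 2 CHR matches farther from the start, at -116 and -98, and 3 CCAAT matches. The window of Cdc20 holds 1 CHR match and 2 CCAAT matches, and that of Nusap1 holds neither. A window was at hand for 38 of the 45 members, with 40 windows in all because Prc1 and Ect2 have 2 each. A CHR match on either strand was found in 32 of the 40 member windows (80%), against 19.2% of all 32851 windows of the same length. From 50 bases before the start to the end of the window a CHR match was found in 30 of 40 (75%), against 5.31% of all windows. At least 1 CCAAT match was found in 31 of 40 (77.5%), against 37.4%, and at least 2 in 21 of 40 (52.5%), against 11.7%. The E2F letters GCGGGAA or GGCGGGA, which overlap each other in part, were found on either strand in 10 of 40 member windows (25%), against 13.3% of all windows. These counts describe letters in the windows and were not tested.

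The levels below are log2 values made by RMA, in which 1 unit is a doubling of signal, and differences between groups were tested with limma over all 14953 genes with Benjamini-Hochberg adjustment (two-sided, called at an adjusted p under 0.05). The arrays correlated with each other between 0.99 and 0.994 over all probe sets, and no array stood apart. Pdgfra, the FAP marker, lay at 11.29 and 11.32 on the pA-VMO arrays, at 11.31 and 11.29 on the 5'ss-VMO arrays, and at 11.37 and 11.24 on the control arrays. Of the markers of other cells, Cd79a of B cells and S100a8 of neutrophils lay below the filter floor of 5.21 on average. Those of macrophages (Adgre1, Csf1r, C1qa), endothelium (Pecam1, Cdh5), muscle cells (Myod1, Pax7) and T cells (Cd3e) lay above it. The FAP surface gene Cd34 lay at 10.54 and 10.67 with pA-VMO and at 10.68 and 10.60 with 5'ss-VMO, against 10.87 and 10.83 with Control VMO. With 2 arrays per group an exact permutation test of 1 gene cannot give a two-sided p below 0.333, and the number of arrays limits the precision.

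After treatment with either reagent nearly every mitotic gene lay above control by a small amount. Under pA-VMO 43 of the 44 members had a positive difference from control, with a median of 0.22 (log2, 1.16-fold), while the median over all genes tested was 0.01 and 55.2% of all genes had a positive difference. With 5'ss-VMO 43 of 44 were positive with a median of 0.21 (1.16-fold), against a median of 0.00 over all genes and 50.4% positive. The 2 exceptions were Spc25 with pA-VMO, at -0.02, and Bub1b with 5'ss-VMO, at -0.01. Both comparisons share the control arrays, so the 2 counts are not independent. Members also shifted together between arrays of 1 group, as 42 of 44 were higher on 5'ss-VMO replicate 2 than on replicate 1. The 44 members are therefore not 44 separate observations. The members were also chosen with earlier results of these data known, so the counts describe the list and do not test it. In RNA of pooled cells, more cells in G2 or mitosis and more of these transcripts per cell cannot be told apart.

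No single member passed the test in either comparison. With pA-VMO 0 of 44 were called (0.00669% of all genes tested were), and the lowest adjusted p of a member was 0.204. With 5'ss-VMO 0 of 44 were called (0.582% of all genes), and the lowest adjusted p was 0.0517, that of Mki67. At an unadjusted p under 0.05, 27 of 44 members were higher with pA-VMO (6.22% of all genes) and 23 of 44 with 5'ss-VMO (7.72% of all genes), and 0 members were lower in either comparison (5.23% and 6.19% of all genes). With a limma prior that follows the level of the gene (eBayes with trend), Mki67 was called with pA-VMO (adjusted p = 0.02), and Mki67 and Racgap1 with 5'ss-VMO (adjusted p = 0.00455 and 0.0157). Under that prior the calls over all genes increased as well, to 51 against 1 with pA-VMO and to 266 against 87 with 5'ss-VMO.

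Seen array by array, both pA-VMO arrays lay above both control arrays for 37 of 44 members, where this was so for 24.1% of all genes. Both 5'ss-VMO arrays lay above both control arrays for 31 of 44 members (23.2% of all genes). For 26 members all 4 arrays of the 2 reagents lay above both control arrays, which was so for 10.3% of all genes. For 0 members were both arrays of pA-VMO, or of 5'ss-VMO, below both control arrays (18.8% and 21.5% of all genes), and for 0 members all 4 (8.38%). The 90th percentile of the differences of all genes was 0.15 with pA-VMO, below 35 members, and 0.16 with 5'ss-VMO, below 29 members.

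**Figure D1:**
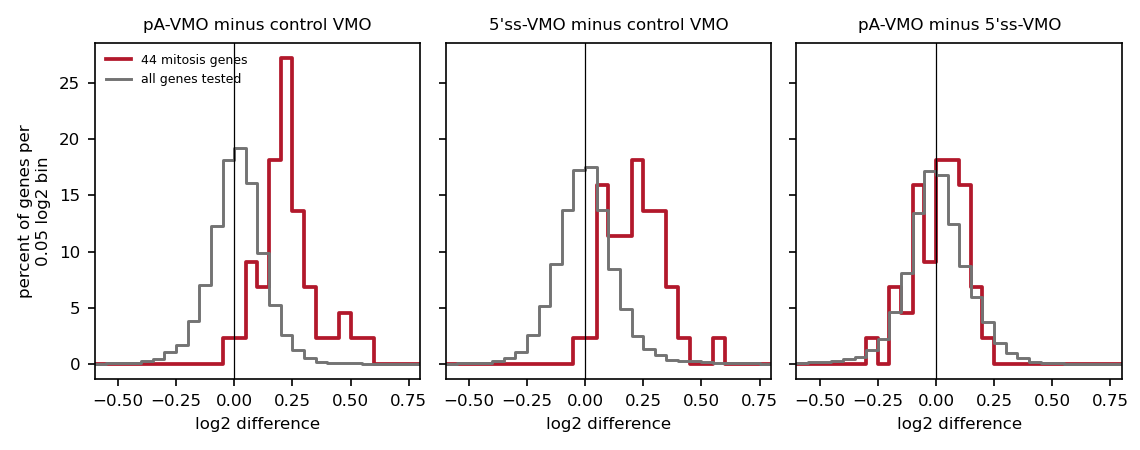
Distribution of log2 differences of the 44 mitosis genes (red) and of all 14953 genes tested (grey) in 3 comparisons, as the percentage of genes per bin of 0.05 log2 units. The red lines lie right of the grey lines against control, with medians of 0.22 and 0.21, and over them between the reagents, with a median of 0.03.

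The arrays of one group did not all show the members at the same height. Relative to the control mean, the median over the 44 members was 0.25 and 0.21 on pA-VMO replicates 1 and 2, 0.11 and 0.30 on 5'ss-VMO replicates 1 and 2, and 0.02 and -0.02 on control replicates 1 and 2. The 5'ss-VMO arrays thus enclosed the pA-VMO arrays. Within the 5'ss-VMO group 42 of 44 members were higher on replicate 2, by a median of 0.17, while 50.7% of all genes were. Within the pA-VMO and the control group 17 of 44 members each were higher on replicate 2, where 49.3% and 44.5% of all genes were.

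That spread bears on every value of the 5'ss-VMO group. The SD of the mean of the members between the 2 arrays was 0.019 with pA-VMO, 0.133 with 5'ss-VMO and 0.043 with Control VMO. Without 5'ss-VMO replicate 2 the median difference from control was 0.11 with 38 of 44 members positive, and without 5'ss-VMO replicate 1 it was 0.30 with 43 positive. With pA-VMO the median stayed between 0.20 and 0.26 whichever array was left out, with 42 or 43 members positive. Of the 44 members 24 had their highest value on 5'ss-VMO replicate 2 and 14 on pA-VMO replicate 1, and 40 had their lowest value on a control array, 26 of them on control replicate 2. Of all genes, 18.5% were highest on 5'ss-VMO replicate 2 and 19.0% on pA-VMO replicate 1. On control replicates 1 and 2, 14.0% and 21.3% of all genes were lowest.

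**Figure D2:**
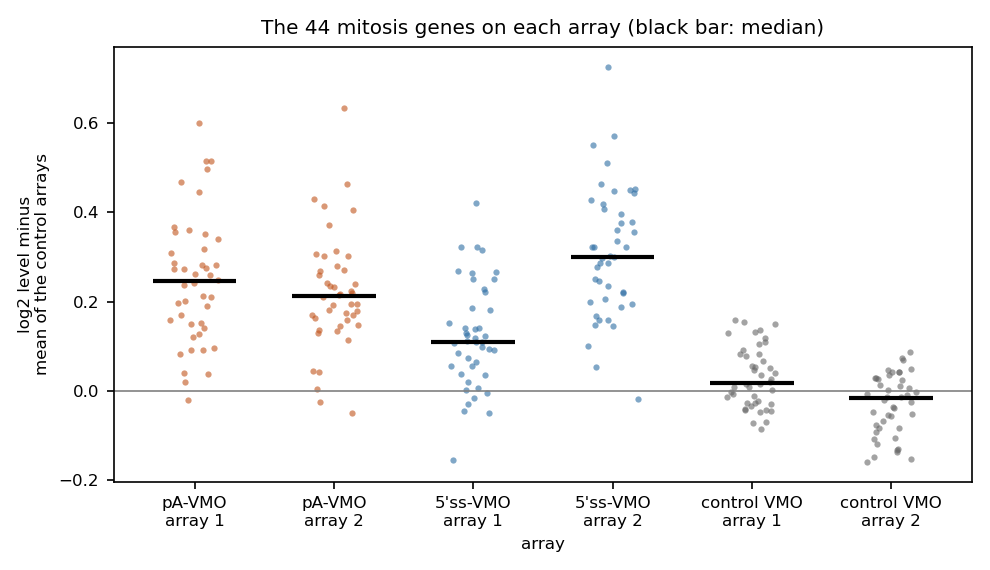
Each point is 1 of the 44 mitosis genes on 1 array, as its log2 level minus the mean of the control arrays, and the black bars are medians. The medians of the treated arrays lie between 0.11 and 0.30, with 5'ss-VMO replicate 1 the lowest and 5'ss-VMO replicate 2 the highest of the 4.

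**Figure D3:**
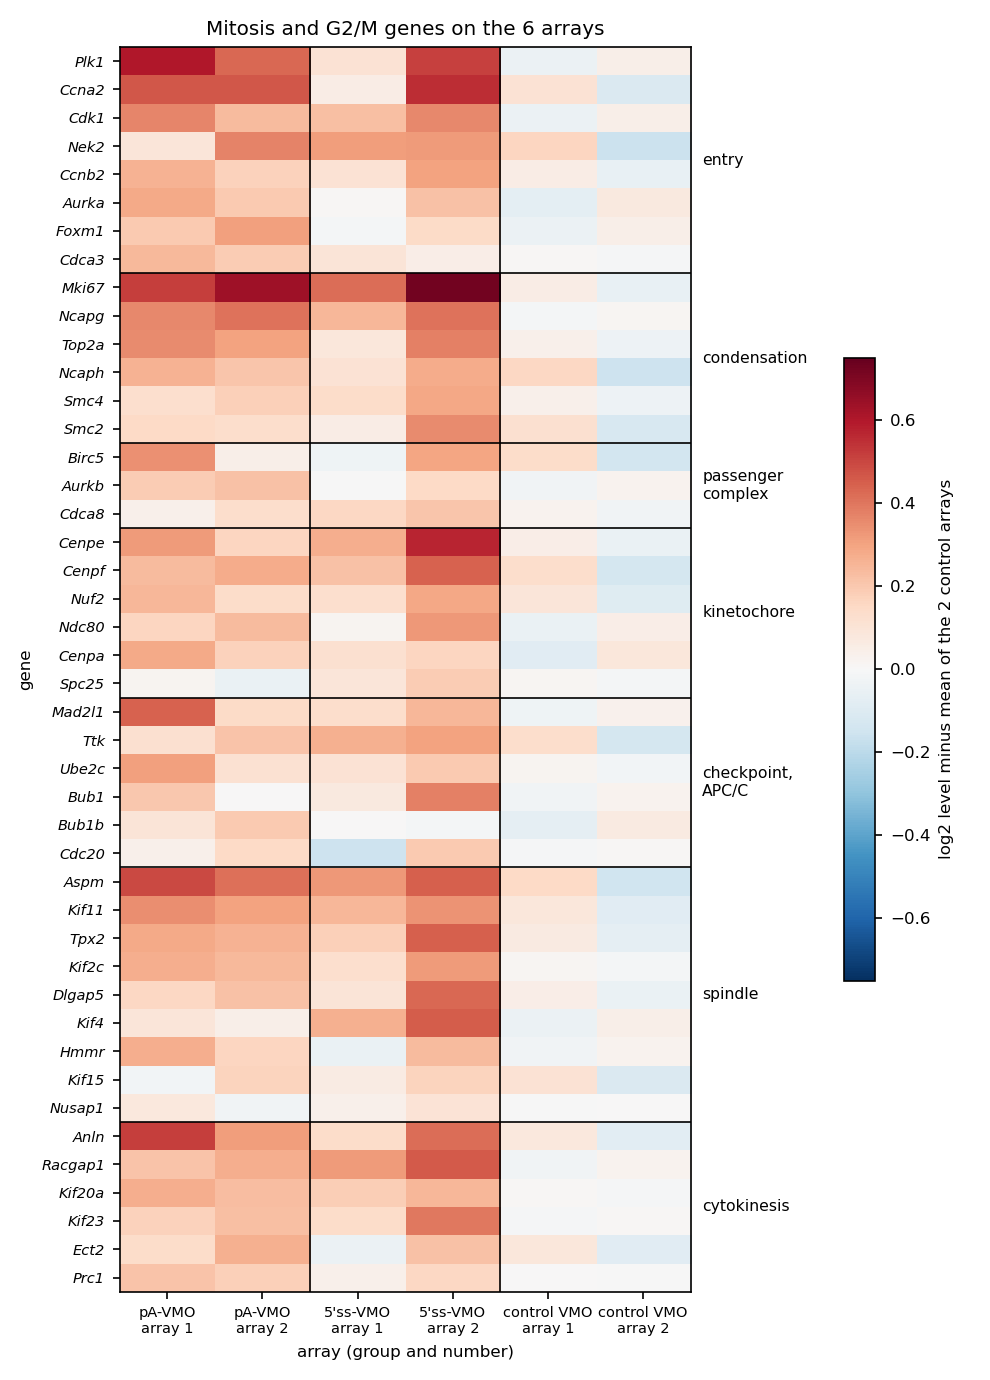
Log2 level of each member on each array, minus the mean of the 2 control arrays, with genes grouped by role and sorted within a role by the mean difference of both reagents from control. Red is above the control mean and blue below it, and Mki67 reaches 0.73 on 5'ss-VMO replicate 2.

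Of the regulators of mitotic entry, all 8 measured members lay above control with either reagent, with a median of 0.25 for both pA-VMO and 5'ss-VMO. Plk1, the polo-like kinase that promotes entry and spindle assembly, had levels of 8.10 and 7.93 with pA-VMO and 7.61 and 8.01 with 5'ss-VMO, against 7.46 and 7.54 with Control VMO. Both reagents' arrays were above control, and the 5'ss-VMO arrays lay far apart. The difference was 0.52 ± 0.121 (log2, ± SE here and below, n = 2 arrays in each group) for pA-VMO (limma adjusted p = 0.244) and 0.31 ± 0.121 with 5'ss-VMO (limma adjusted p = 0.309), which was 0.11 without 5'ss-VMO replicate 2. Cdk1, the kinase that drives mitosis, was closer within groups, at 7.80 and 7.67 with pA-VMO and 7.66 and 7.80 with 5'ss-VMO, against 7.39 and 7.48 with Control VMO. It was higher by 0.30 ± 0.0781 with pA-VMO and by 0.29 ± 0.0781 with 5'ss-VMO (limma adjusted p = 0.252 and 0.164).

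Cdca3 and Foxm1 had larger values for pA-VMO than for 5'ss-VMO. Cdca3, which helps to degrade the mitotic inhibitor Wee1, lay at 7.36 and 7.31 with pA-VMO and at 7.22 and 7.17 with 5'ss-VMO, against 7.13 and 7.11 with Control VMO. Foxm1, the transcription factor of G2 genes, lay at 7.03 and 7.13 with pA-VMO and at 6.81 and 6.97 with 5'ss-VMO, against 6.78 and 6.87 with Control VMO. Neither gene's arrays overlapped between pA-VMO and control, while those of Foxm1 overlapped between 5'ss-VMO and control. Their differences from control were 0.22 and 0.25 with pA-VMO and 0.08 and 0.06 with 5'ss-VMO (limma adjusted p from 0.291 to 0.756). Aurka, the centrosomal Aurora kinase, had the largest p over the 3 groups among the entry genes, with 6.89 and 6.79 for pA-VMO and 6.61 and 6.82 for 5'ss-VMO, against 6.53 and 6.67 for Control VMO. Ccna2 (cyclin A2), Ccnb2 (cyclin B2) and Nek2 (a centrosomal kinase) lay at 0.47, 0.21 and 0.23 with pA-VMO and at 0.30, 0.21 and 0.32 with 5'ss-VMO.

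Condensation and decatenation genes held the member with the largest differences. Mki67, which encodes Ki-67, a proliferation antigen that coats mitotic chromosomes, had levels of 8.20 and 8.31 with pA-VMO and 8.10 and 8.41 with 5'ss-VMO, against 7.73 and 7.63 with Control VMO. All 4 treated arrays were above both control arrays, with the lowest of them on 5'ss-VMO replicate 1. Mki67 lay 0.58 ± 0.102 above control with pA-VMO (1.49-fold, 95% interval 0.35 to 0.81) and 0.57 ± 0.102 with 5'ss-VMO (1.49-fold, 0.34 to 0.80), with limma adjusted p = 0.204 and 0.0517. Ncapg, a subunit of condensin I, lay at 6.50 and 6.54 with pA-VMO and at 6.39 and 6.54 with 5'ss-VMO, against 6.12 and 6.15 with Control VMO. The groups again did not overlap, and the differences of Ncapg were 0.38 ± 0.0726 and 0.33 ± 0.0726 (limma adjusted p = 0.204 and 0.102).

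Top2a, the topoisomerase that untangles sister chromatids, lay at 8.27 and 8.22 with pA-VMO and at 8.00 and 8.29 with 5'ss-VMO, against 7.95 and 7.87 with Control VMO. Its difference was 0.33 for pA-VMO and 0.23 for 5'ss-VMO. The second of these was 0.08 without 5'ss-VMO replicate 2, and a second probe set of Top2a, close to the filter floor, lay above both control arrays on none of the treated arrays. Smc2, the core condensin ATPase, had the largest p of the condensation genes, with 7.31 and 7.30 for pA-VMO and 7.22 and 7.52 for 5'ss-VMO, against 7.28 and 7.04 for Control VMO. The control arrays of Smc2 enclosed 1 of its 5'ss-VMO arrays. The other 2 condensin genes, Ncaph and Smc4, lay at 0.24 and 0.15 with pA-VMO and at 0.19 and 0.21 with 5'ss-VMO.

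The chromosomal passenger complex, which corrects faulty spindle attachments, gave smaller values. Aurkb, its kinase, lay at 7.28 and 7.31 with pA-VMO and at 7.09 and 7.24 with 5'ss-VMO, against 7.06 and 7.12 with Control VMO. Cdca8 (borealin) lay at 6.18 and 6.27 with pA-VMO and at 6.29 and 6.35 with 5'ss-VMO, against 6.17 and 6.11 with Control VMO. Birc5 (survivin) lay at 6.87 and 6.57 with pA-VMO and at 6.50 and 6.83 with 5'ss-VMO, against 6.67 and 6.39 with Control VMO. The 3 genes of the complex differed in pattern, and the arrays of Birc5 overlapped in every comparison. Their differences from control ran from 0.09 to 0.20 with pA-VMO and from 0.07 to 0.18 with 5'ss-VMO.

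Centromere and kinetochore genes were above control in 5 of 6 members with pA-VMO (median 0.21) and in 6 of 6 with 5'ss-VMO (median 0.19). Cenpe, the kinesin that carries chromosomes to the spindle equator, had levels of 6.68 and 6.52 with pA-VMO and 6.63 and 6.94 with 5'ss-VMO, against 6.41 and 6.32 with Control VMO. Its difference from control was 0.24 ± 0.103 for pA-VMO (limma adjusted p = 0.427) and 0.42 ± 0.103 for 5'ss-VMO (limma adjusted p = 0.141), the largest among the kinetochore genes for 5'ss-VMO. Cenpf, a large kinetochore protein of G2 and M, lay at 6.27 and 6.31 with pA-VMO and at 6.25 and 6.47 with 5'ss-VMO, against 6.16 and 5.90 with Control VMO. Cenpa, the histone H3 variant that marks centromeres, lay at 7.47 and 7.36 with pA-VMO and at 7.30 and 7.34 with 5'ss-VMO, against 7.10 and 7.27 with Control VMO. For both Cenpf and Cenpa all treated arrays were above the control arrays.

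The microtubule-binding NDC80 complex was represented by 3 of its subunits. Ndc80 lay at 6.48 and 6.56 with pA-VMO and at 6.34 and 6.64 with 5'ss-VMO, against 6.27 and 6.37 with Control VMO. Spc25 lay at 6.34 and 6.27 with pA-VMO and at 6.41 and 6.51 with 5'ss-VMO, against 6.34 and 6.31 with Control VMO. Nuf2 lay 0.19 and 0.21 above control with pA-VMO and 5'ss-VMO. Of the 3, Spc25 was the one whose pA-VMO arrays overlapped with control.

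Checkpoint and anaphase-promoting complex genes showed the lowest median with pA-VMO of the 7 role groups, 0.16, and a median of 0.17 with 5'ss-VMO. Ttk (Mps1), the kinase that starts checkpoint signalling, lay at 5.78 and 5.87 with pA-VMO and at 5.92 and 5.96 with 5'ss-VMO, against 5.79 and 5.53 with Control VMO. Mad2l1, which binds and holds Cdc20, lay at 7.80 and 7.51 with pA-VMO and at 7.49 and 7.61 with 5'ss-VMO, against 7.32 and 7.39 with Control VMO. The arrays of Mad2l1 did not overlap between either reagent and control, while those of Ttk did with pA-VMO. Ube2c, the ubiquitin-conjugating enzyme of the complex, lay at 8.20 and 8.00 with pA-VMO and at 8.00 and 8.09 with 5'ss-VMO, against 7.91 and 7.87 with Control VMO.

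Cdc20, the activator of the anaphase-promoting complex, was the member with the largest p over the 3 groups. Its levels were 6.82 and 6.93 with pA-VMO and 6.63 and 6.98 with 5'ss-VMO, against 6.77 and 6.80 with Control VMO. The difference was 0.09 ± 0.106 with pA-VMO (95% interval -0.15 to 0.33) and 0.02 ± 0.106 with 5'ss-VMO (-0.22 to 0.26), intervals that include the median of all members. Its pA-VMO arrays did not overlap with control, and its 5'ss-VMO arrays lay on either side of control. Without 5'ss-VMO replicate 2 Cdc20 lay at -0.16 with 5'ss-VMO. The checkpoint kinase gene Bub1 lay at 0.10 and 0.23, and Bub1b (BubR1) at 0.15 and -0.01, with pA-VMO and 5'ss-VMO.

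All 9 spindle genes lay above control with either reagent, with medians of 0.22 for pA-VMO and 0.26 for 5'ss-VMO. Kif11, the kinesin that pushes spindle poles apart, had levels of 7.38 and 7.33 with pA-VMO and 7.28 and 7.37 with 5'ss-VMO, against 7.11 and 6.95 with Control VMO. Aspm, a spindle pole protein, had 6.46 and 6.37 with pA-VMO and 6.28 and 6.41 with 5'ss-VMO, against 6.11 and 5.81 with Control VMO. Neither overlapped with control under either reagent. Kif11 was higher by 0.33 ± 0.0765 and 0.29 ± 0.0765 (limma adjusted p = 0.243 and 0.161), and Aspm by 0.46 ± 0.0996 and 0.39 ± 0.0996 (limma adjusted p = 0.228 and 0.157), with pA-VMO and 5'ss-VMO.

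Kif4, a kinesin bound to chromosome arms, had the smallest p of a member between the reagents. Its levels were 5.80 and 5.76 with pA-VMO and 5.98 and 6.17 with 5'ss-VMO, against 5.67 and 5.76 with Control VMO. The 5'ss-VMO arrays were above all others. Kif4 was 0.07 ± 0.0787 over control with pA-VMO (limma adjusted p = 0.788) and 0.36 ± 0.0787 with 5'ss-VMO (limma adjusted p = 0.101). Nusap1, a microtubule bundling protein, had small differences, 0.03 and 0.07 for pA-VMO and 5'ss-VMO, with 6.50 and 6.40 for pA-VMO and 6.46 and 6.52 for 5'ss-VMO, against 6.42 and 6.43 for Control VMO. The remaining spindle genes (the motors Kif15 and Kif2c, the assembly factor Tpx2, Dlgap5 and Hmmr) lay between 0.07 and 0.27 with pA-VMO and between 0.09 and 0.31 with 5'ss-VMO.

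Genes of the central spindle and cytokinesis were above control in 6 of 6 members with either reagent (medians 0.22 and 0.24 for pA-VMO and 5'ss-VMO). Racgap1, a subunit of centralspindlin, had levels of 7.14 and 7.19 with pA-VMO and 7.25 and 7.39 with 5'ss-VMO, against 6.90 and 6.95 with Control VMO. The 3 groups did not overlap, with 5'ss-VMO on top. Racgap1 lay 0.24 ± 0.0721 above control with pA-VMO (1.18-fold, limma adjusted p = 0.298) and 0.39 ± 0.0721 with 5'ss-VMO (1.31-fold, limma adjusted p = 0.0595). Kif20a, a kinesin of the central spindle, was tight within groups, at 7.27 and 7.23 with pA-VMO and 7.18 and 7.24 with 5'ss-VMO, against 7.01 and 6.99 with Control VMO. Its differences were 0.25 ± 0.0639 and 0.22 ± 0.0639 (limma adjusted p = 0.251 and 0.207).

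Anln (anillin), the scaffold of the contractile ring, lay at 8.52 and 8.32 with pA-VMO and at 8.15 and 8.42 with 5'ss-VMO, against 8.08 and 7.93 with Control VMO. Its 4 treated arrays were above both control arrays, 5'ss-VMO replicate 1 by the least. Ect2, the exchange factor that activates RhoA at the cell equator, lay at 7.23 and 7.36 with pA-VMO and at 7.05 and 7.31 with 5'ss-VMO, against 7.17 and 7.01 with Control VMO. Prc1, the bundler of the central spindle, and Kif23, the motor subunit of centralspindlin, lay at 0.19 and 0.20 with pA-VMO and at 0.10 and 0.27 with 5'ss-VMO.

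**Figure D4:**
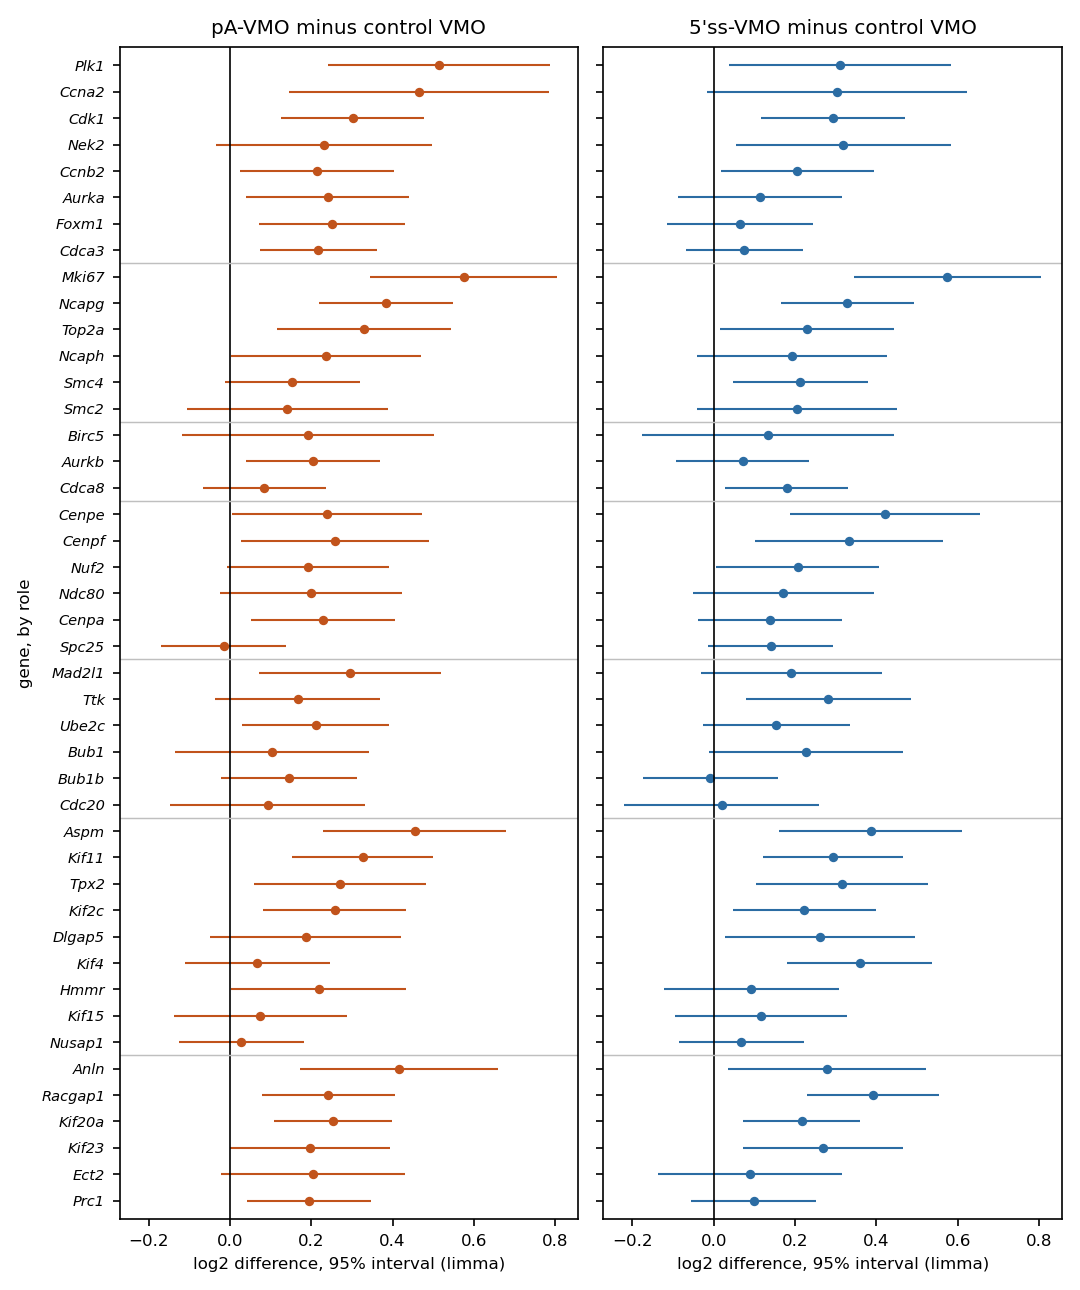
Log2 difference of each member from control with its 95% interval (limma) for pA-VMO on the left and 5'ss-VMO on the right, with genes grouped by role. Points right of 0 are above control, as 43 of 44 are in each panel, and Mki67 lies the farthest from 0 in both, at 0.58 and 0.57.

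**Figure D5:**
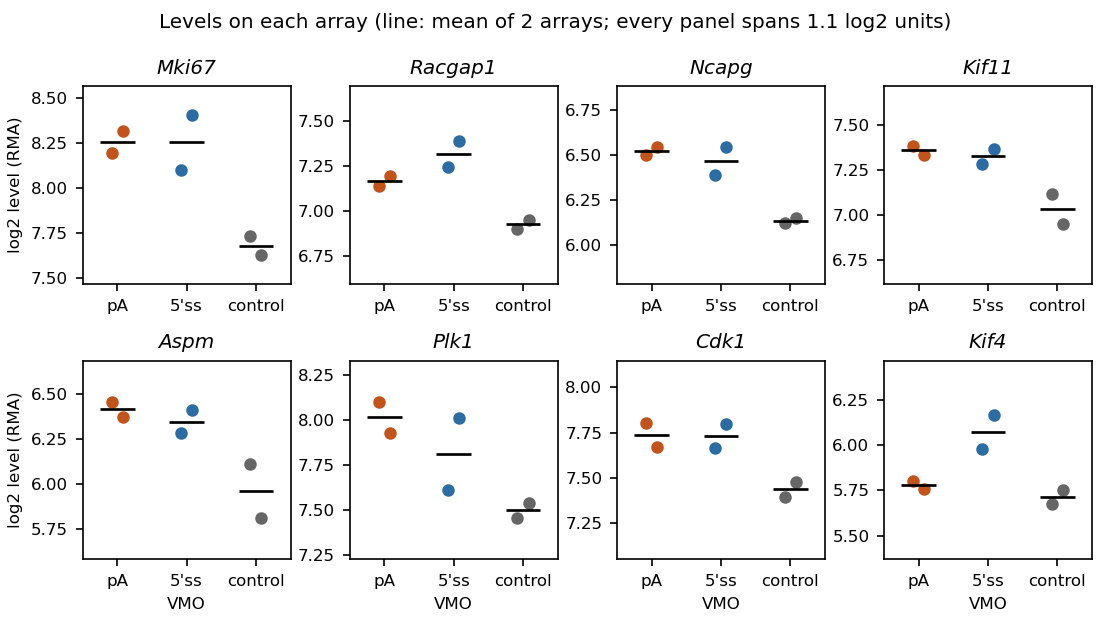
Levels of 8 members on each array, as log2 RMA values, with the mean of each group as a line and the same span of values in every panel. Mki67 lies between 8.10 and 8.41 on the treated arrays, against 7.63 and 7.73 on the control arrays, and Kif4 is set apart on the 5'ss-VMO arrays.

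The reagents were also compared with each other, since they were directed at different sites of the same transcript. Of the 44 members 27 were higher with pA-VMO than with 5'ss-VMO, where 51.4% of all genes were, and the median difference was 0.03. By limma 0 members were called (0.0602% of all genes were), and at an unadjusted p under 0.05 there were 1 higher and 2 lower (8.81% and 7.11% of all genes). The arrays of the reagents did not overlap for 11 members, 6 higher and 5 lower with pA-VMO (25.5% and 23.7% of all genes). The 3 with an unadjusted p under 0.05 were Foxm1 at 0.19, Kif4 at -0.29 ± 0.0787 (limma adjusted p = 0.141) and Spc25 at -0.16. Cdca3 and Racgap1 came next, at 0.14 and -0.15 (limma adjusted p = 0.317 and 0.345). Which reagent was higher depended on 1 array: without 5'ss-VMO replicate 1 the median was -0.08 with 12 of 44 members positive, and without 5'ss-VMO replicate 2 36 of 44 were positive. For Mki67 the difference between the reagents was 0.00 with a 95% interval of -0.23 to 0.23.

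With the mean of both reagents set against control, all 44 members had a positive difference, with a median of 0.21, where 53% of all genes did. The differences ran from 0.05 for Nusap1 to 0.57 for Mki67. By limma 0 of 44 members were called (0.174% of all genes were), and 32 had an unadjusted p under 0.05, all higher (6.55% of all genes were higher and 4.98% lower). The smallest adjusted p values were those of Mki67 (0.0541), Ncapg (0.0829), Racgap1 (0.0946), Aspm (0.112) and Kif11 (0.13). With the prior that follows level, these 5 genes and Cdk1 and Plk1 were called (limma adjusted p from 0.00266 to 0.0478), while the calls over all genes increased to 195, against 26 without it. With 1 array left out the median stayed between 0.16 and 0.25, with 43 or 44 members positive.

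Further genes of mitosis, of which 72 of 80 listed were tested, also lay mostly above control. With pA-VMO 63 of 72 were above control with a median of 0.14, and with 5'ss-VMO 65 of 72 with a median of 0.14, with 0 called by limma in either (0.00669% and 0.582% of all genes). At an unadjusted p under 0.05, 21 were higher with pA-VMO (6.22% of all genes) and 26 with 5'ss-VMO (7.72% of all genes), and 0 were lower. Fbxo5 (Emi1), an inhibitor of the anaphase-promoting complex, lay at 6.49 and 6.36 with pA-VMO and at 6.19 and 6.45 with 5'ss-VMO, against 5.88 and 6.01 with Control VMO. Kif20b, a kinesin of cytokinesis, lay at 5.49 and 5.44 with pA-VMO and at 5.46 and 5.46 with 5'ss-VMO, against 5.17 and 4.96 with Control VMO. Both were above control on all 4 treated arrays, with differences of 0.48 and 0.40 for pA-VMO and 0.37 and 0.40 for 5'ss-VMO (limma adjusted p from 0.0787 to 0.22). Both control levels of Kif20b lay below the filter floor of 5.21, and it passed the filter only through its treated arrays. Of the other genes of this list with the smallest p, Cep55 (abscission) lay at 0.39 and Ncapd2 (condensin I) at 0.30 with pA-VMO, and the chromatin protein gene Hmgb2 at 0.34 and the phosphatase gene Cdc25c at 0.29 with 5'ss-VMO. Between the reagents the smallest p values were those of Knl1 at -0.25, Pbk at 0.39, Troap at 0.18 and Stil at -0.18 (limma adjusted p from 0.245 to 0.274).

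S phase genes were above control in 29 of 29 tested members with both reagents, with medians of 0.21 for pA-VMO and 0.15 for 5'ss-VMO. Limma called 0 of them in either comparison (0.00669% and 0.582% of all genes). At an unadjusted p under 0.05, 16 were higher with pA-VMO (6.22% of all genes) and 10 with 5'ss-VMO (7.72% of all genes). The replication helicase genes Mcm7, Mcm2 and Mcm5 lay at 0.46, 0.29 and 0.31 with pA-VMO, and Chaf1b, a histone chaperone subunit, at 0.23. With 5'ss-VMO Mcm2, the clamp loader gene Rfc3 and the ligase gene Lig1 lay at 0.26, 0.32 and 0.20. Uhrf1, which maintains DNA methylation at replication forks, lay at 0.47 with 5'ss-VMO, with 6.77 and 6.71 for pA-VMO and 6.69 and 7.11 for 5'ss-VMO, against 6.50 and 6.36 for Control VMO. Its highest value was on 5'ss-VMO replicate 2. Between the reagents 22 of 29 S phase genes were higher with pA-VMO (median 0.05), where 51.4% of all genes were. The smallest p values were those of Mcm7 at 0.28, Chaf1b at 0.17, Rfc4 at 0.15 and Tk1 at 0.14 (limma adjusted p from 0.215 to 0.513). Relative to the control mean, the S phase medians were 0.185 and 0.188 on the pA-VMO arrays. They were 0.093 and 0.215 on 5'ss-VMO replicates 1 and 2, below and above both pA-VMO arrays.

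Brakes of the cell cycle and factors of the DREAM and MuvB complexes lay on both sides of control. Of the 22 tested, 10 were above control with pA-VMO (median -0.03) and 15 with 5'ss-VMO (median 0.08). In neither comparison was any called by limma (0.00669% and 0.582% of all genes were). Rbl2 (p130), the pocket protein of the DREAM complex in quiescent cells, lay at 7.46 and 7.61 with pA-VMO and at 7.62 and 7.61 with 5'ss-VMO, against 7.77 and 7.81 with Control VMO. Rbl1 (p107), its relative of cycling cells, lay at 6.80 and 6.74 with pA-VMO and at 6.74 and 6.86 with 5'ss-VMO, against 6.55 and 6.56 with Control VMO. For both genes the treated arrays lay on one side of the control arrays, below for Rbl2 and above for Rbl1 (differences with both reagents -0.22 and 0.23, limma adjusted p = 0.241 and 0.208). Cdkn2c (p18), an inhibitor of CDK4 and CDK6, lay at -0.20 with pA-VMO and at -0.17 with 5'ss-VMO. Btg2, an antiproliferative gene, lay at -0.35 with pA-VMO against control and at -0.42 against 5'ss-VMO (limma adjusted p = 0.251 and 0.0831). Its levels were 9.19 and 9.06 with pA-VMO and 9.50 and 9.58 with 5'ss-VMO, against 9.38 and 9.57 with Control VMO. Rbbp4 and Lin9, both of MuvB, lay at 0.21 and 0.24 with 5'ss-VMO against control. Between the reagents 4 of 22 were higher with pA-VMO (median -0.07), where 51.4% of all genes were. Besides Btg2 the smallest p values were those of Cdkn1b (p27) at -0.19, E2f5 at -0.20 and Lin9 at -0.22 (limma adjusted p from 0.233 to 0.256).

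Markers of other cells in muscle also differed between groups. Of 15 tested macrophage markers 11 were above control with pA-VMO (median 0.15) and 12 with 5'ss-VMO (median 0.19). With 5'ss-VMO C1qc and C1qa, of complement, rose by 0.50 and 0.39 (limma adjusted p = 0.0249 and 0.0472). Below control were 4 markers with pA-VMO, with Mertk the lowest at -0.16, and 3 with 5'ss-VMO, with Lgals3 the lowest at -0.23. The summed linear signal of all 17 macrophage markers was 3196 to 3233 with pA-VMO and 3225 to 3226 with 5'ss-VMO. It was 2991 to 3227 with Control VMO, so the sums overlapped. Over the 15 tested markers, medians from the control mean were 0.17 and 0.13 with pA-VMO and 0.18 and 0.24 with 5'ss-VMO. They were -0.07 and 0.07 on the control arrays, so these medians did not overlap. The macrophage gene Adgre1 lay at 6.18 and 6.31 with pA-VMO and at 6.57 and 6.28 with 5'ss-VMO, against 5.90 and 6.04 with Control VMO. Pericyte and smooth muscle markers were above control in 8 of 10 with pA-VMO (median 0.21) and 9 of 10 with 5'ss-VMO (median 0.22), where Mcam rose by 0.42 (limma adjusted p = 0.0443). Their summed signal over 11 markers was 3548 and 3756 with pA-VMO and 3489 and 4262 on 5'ss-VMO replicates 1 and 2, against 3012 and 2987 with Control VMO. The median of the pericyte and smooth muscle markers from the control mean was 0.19 and 0.22 on 5'ss-VMO replicates 1 and 2. Acta2, of smooth muscle, made up the larger part of the summed signal of these markers on every array. Its levels were 11.11 and 11.24 with pA-VMO and 11.06 and 11.45 with 5'ss-VMO, against 10.84 and 10.84 with Control VMO. Kcnj8 had the lowest difference from control among the tested pericyte and smooth muscle markers, -0.065 for pA-VMO and -0.10 for 5'ss-VMO. Abcc9 differed little from control, by 0.09 and 0.07 in the same order (limma adjusted p = 0.643 and 0.664).

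Satellite cell and myoblast markers were above control in 7 of 14 with pA-VMO (median -0.01) and 11 of 14 with 5'ss-VMO (median 0.17), with summed signals of 3933 to 3940 with pA-VMO and 4072 to 4193 with 5'ss-VMO, against 3879 to 3904 with Control VMO. Chrna1, a subunit of the muscle acetylcholine receptor, rose by 0.62 with 5'ss-VMO (limma adjusted p = 0.0283). Endothelial markers were positive in 7 of 9 with pA-VMO and 5 of 9 with 5'ss-VMO, and their sums over 10 genes were 739 to 766 and 776 to 803, against 675 to 732 with Control VMO. Over all genes 55.2% and 50.4% were positive with pA-VMO and 5'ss-VMO. The endothelial cadherin gene Cdh5 rose by 0.70 with 5'ss-VMO (limma adjusted p = 0.00551), the most of the 9. In that comparison 4 of the 9 were negative, with Tek the lowest at -0.19. The satellite cell and endothelial sums were higher with 5'ss-VMO than in the other groups. FAP markers were above control in 7 of 18 with pA-VMO and 5 of 18 with 5'ss-VMO, and their sums were 60511 to 60619 and 58675 to 61015, against 61016 to 63350 with Control VMO. Dpp4, of a progenitor-type fibroblast, fell with 5'ss-VMO by 0.52 (limma adjusted p = 0.0318). Lymphocyte sums were 481 to 500 with pA-VMO and 444 to 454 with 5'ss-VMO, against 464 to 470 with Control VMO, neutrophil sums were 607 to 656 and 572 to 591, against 564 to 576, and sums of 3 erythroid markers were 167 to 178 and 145 on both arrays, against 147 to 157. RMA gives no marker as 0, and 5 of 11 lymphocyte and 6 of 10 neutrophil markers were below the filter. The part of these cells in the differences of the mitotic genes was not tested.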

How the data were processed

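The deposited values are log2 probe set levels from Affymetrix Mouse Gene 1.0 ST arrays, made by the authors with Affymetrix Expression Console by RMA, per the submitters' processing notes. Its version is not given in the sources used here. Quantile normalization within RMA gives every array 1 common distribution, which hides any change in total RNA per cell. Per the labels' protocols, 100 ng of total RNA was labelled. Of 35556 probe sets, 21789 have 1 gene symbol in the platform annotation, 1621 several and 12146 none. They stand for 19938 genes, each read by its probe set with the highest mean; genes below the 25th percentile of the mean (log2 5.21) were left out. A model of group means was fitted to all 6 arrays by limma 3.58.1 (R 4.3.3, with 3 residual and 6.06 prior degrees of freedom and no block), and the procedure was tested on simulated data. Intervals are 95%. Values per array were printed for the 3 members of each role group with the smallest moderated F p, the member with the largest, and the 5 with the smallest p per comparison. From each further list of cell cycle genes the 4 with the smallest p per comparison could be named, and markers of cell types were named after their values were seen. The members and lists were chosen with earlier results of these data known. The series' design text calls each array's pool of mice a biological replicate. Alternatives were the filter, the prior, the probe set rule, the scaling, a replicate block, and arrays left out.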

Additional observations from a re-analysis of the deposited data

How the results depend on the processing

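Members called (0 in every comparison as reported) became 1 with pA-VMO against control under the trend prior. With 5'ss-VMO against control they became 3 with a filter at the 50th percentile (of 37 members left), 2 under the trend prior, 1 with the mean of a gene's probe sets, 2 with arrays centred on their median, and 0 to 1 with an array left out (Mki67, without 5'ss-VMO replicate 1). With both reagents against control they became 3 with the stricter filter, 7 under the trend prior, 1 with centred arrays and 0 to 1 with an array left out. Between the reagents they stayed 0 under all alternatives tried. With a replicate block 1 member (Mki67) was called with 5'ss-VMO (adjusted p = 0.0443) and 1 with both reagents (adjusted p = 0.0463), where the calls over all genes were 90 and 33, and over all genes 23 against 9 were called between the reagents. The labels do not say that a number pairs arrays. Deviations of same-numbered arrays correlated between -0.102 and 0.021, which cannot show whether such arrays were prepared together. The median member difference ran from 0.11 to 0.301 with 5'ss-VMO and from -0.078 to 0.107 between the reagents with an array left out.

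Over all genes, calls with pA-VMO were 1 as reported, 0 without a filter, 51 under the trend prior and 0 to 2 with an array left out. With 5'ss-VMO they were 87, then 24 without a filter, 181 with the stricter filter, 266 under the trend prior, 98 with the mean of probe sets, 112 with centred arrays and 8 to 76 with an array left out. Between the reagents they were 9, then 3, 102 and 197 in the same order, 15 with the mean of probe sets, 102 with centred arrays (11 higher and 91 lower with pA-VMO, against 2 and 7 as reported) and 1 to 18 with an array left out. With both reagents they were 26, then 0, 100 and 195, 31 with centred arrays and 0 to 8 with an array left out. The cause of these changes in the counts was not tested. Some of the fits also held more or fewer genes, or fewer arrays. Of single members, Nusap1 with pA-VMO lay at -0.001 with centred arrays. With an array left out, ranges that crossed 0 were those of Nusap1 (-0.025 to 0.082) and Spc25 (-0.05 to 0.019) with pA-VMO, of Aurkb (-0.005 to 0.147), Birc5 (-0.03 to 0.298), Cdc20 (-0.156 to 0.194), Ect2 (-0.044 to 0.222) and Foxm1 (-0.016 to 0.146) with 5'ss-VMO, and of Cdc20 (-0.032 to 0.143) with both reagents. Among the 29 members with values on each array, no other direction against control changed under the alternatives tried. Fitting only the arrays compared was not run for both reagents together.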

Other observations

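The second probe set of Top2a, which was not used because its mean was lower, did not move with the first. Its log2 levels were 5.29 and 5.22 with pA-VMO and 5.42 and 5.25 with 5'ss-VMO, against 5.66 and 5.39 with Control VMO. These lie near the filter floor of 5.21, and a further 2 probe sets annotated to Top2a together with Hibadh were not analysed here.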
